A study of Mus musculus with 32 samples.

Results

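The 7 genes described here are Prdm9 and 6 genes whose products have been linked to its recombination hotspots: Zcwpw1, Hells, Ewsr1, Ehmt2, Cdyl and Cxxc1. They were taken by symbol, each matched 1 Ensembl gene of the GENCODE mouse annotation, and all 7 were among the 20368 genes that reached 3 TPM (a share of all transcripts in a sample, scaled for transcript length) in at least 1 juvenile mouse. RNA was measured in germ cells of individual male C57BL/6J mice at 8 dpp (days post partum, 3 mice) and at 10, 12, 14, 16 and 18 dpp (5 mice each), ages at which the first wave of meiosis unfolds. A further 4 samples, each pooled from 6 C57BL/6J mice of 9 weeks, held spermatocytes enriched from adult testes by sedimentation, labelled as pachytene and diplotene cells and called adult spermatocytes here. The adult cells were quantified in a table of their own, so their values are set beside the juvenile ones without a test. No group carried a transgene or a treatment, and the series compared ages of unaltered mice.

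In early meiotic prophase PRDM9, a zinc finger protein with a methyltransferase domain, binds DNA at hotspots and writes methyl groups on lysines 4 and 36 of histone H3. Programmed double-strand breaks made by SPO11 then form at these sites. ZCWPW1 reads the paired marks that PRDM9 leaves, the chromatin remodeller HELLS opens hotspot chromatin together with PRDM9, and EWSR1, an RNA- and DNA-binding protein of the FET family, binds PRDM9. EHMT2 (also called G9a) methylates lysine 9 of histone H3, CDYL is a chromodomain protein that binds such marks, and CXXC1 (also called CFP1) is the CpG-binding subunit of the SETD1 methyltransferase complexes. Prdm9 and Zcwpw1 are known chiefly from meiotic germ cells, whereas the other 5 genes are expressed in many cell types.

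In GRCm38 coordinates, Prdm9 lies at chr17:15543079-15564354 on the minus strand, Zcwpw1 at chr5:137787798-137822621 on the plus strand and Hells at chr19:38930915-38971051 on the plus strand. Ewsr1 lies at chr11:5069689-5099266 on the minus strand, Ehmt2 at chr17:34898469-34914052 on the plus strand and Cdyl at chr13:35659833-35874063 on the plus strand. Prdm9 overlaps Gm18564, Zcwpw1 overlaps Pilra and Ewsr1 overlaps Rhbdd3, each on the other strand, and whether the libraries kept the strand is not given in the sources used here, so reads from these overlaps cannot be told apart. Cdyl overlaps 2 annotated genes on its own strand, Gm22126 and Gm48706, and 2 on the other, Gm48707 and Gm48708.

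The RefSeq promoter windows of GRCm38.p6, which run from 250 bases before to 50 bases after an annotated transcript start, show how the starts of Prdm9 and Cdyl differ. They are shown because both genes have transcripts that begin at separate places and whose levels are compared below. Zcwpw1 is set beside them as the gene whose course over the mice correlated most highly with that of Prdm9. Windows of 6 members were examined, 11 in all, of which 5 are shown. Windows of Cxxc1 were left out and not examined. Capitals mark matches, on either strand, to 5 motifs: the GC box GGGCGG, the CCAAT box CCAAT, the E-box CACGTG, the cyclic AMP response element TGACGTCA and the STRA8-MEIOSIN motif CNCCTCAG.
Prdm9, upstream start, chr17:15564305-15564604, minus strand: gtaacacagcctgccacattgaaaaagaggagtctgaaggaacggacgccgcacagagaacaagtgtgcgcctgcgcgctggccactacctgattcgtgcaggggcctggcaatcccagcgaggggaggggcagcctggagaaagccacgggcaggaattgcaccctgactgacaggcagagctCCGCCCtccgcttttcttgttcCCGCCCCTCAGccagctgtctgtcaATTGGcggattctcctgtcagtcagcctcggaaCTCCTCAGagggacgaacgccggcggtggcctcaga
Prdm9, downstream start, chr17:15563282-15563581, minus strand: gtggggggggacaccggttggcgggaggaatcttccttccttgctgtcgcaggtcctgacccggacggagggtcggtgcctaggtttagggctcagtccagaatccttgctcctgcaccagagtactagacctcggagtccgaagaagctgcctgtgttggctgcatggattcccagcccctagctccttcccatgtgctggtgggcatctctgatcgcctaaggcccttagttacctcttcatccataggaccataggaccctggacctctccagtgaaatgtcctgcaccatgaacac
Zcwpw1, chr5:137787552-137787851, plus strand: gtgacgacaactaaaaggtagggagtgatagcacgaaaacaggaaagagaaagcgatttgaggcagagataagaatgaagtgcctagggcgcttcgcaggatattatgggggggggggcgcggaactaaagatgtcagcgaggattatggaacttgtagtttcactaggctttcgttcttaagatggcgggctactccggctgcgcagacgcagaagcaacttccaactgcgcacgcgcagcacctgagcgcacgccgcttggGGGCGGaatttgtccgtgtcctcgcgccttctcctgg
Cdyl, upstream start, chr13:35659612-35659911, plus strand: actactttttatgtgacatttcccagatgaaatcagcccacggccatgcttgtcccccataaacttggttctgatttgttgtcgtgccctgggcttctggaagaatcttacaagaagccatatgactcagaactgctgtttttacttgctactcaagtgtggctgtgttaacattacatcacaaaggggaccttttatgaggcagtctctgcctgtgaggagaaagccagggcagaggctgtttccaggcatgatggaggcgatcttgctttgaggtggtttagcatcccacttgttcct
Cdyl, downstream start, chr13:35741152-35741451, plus strand: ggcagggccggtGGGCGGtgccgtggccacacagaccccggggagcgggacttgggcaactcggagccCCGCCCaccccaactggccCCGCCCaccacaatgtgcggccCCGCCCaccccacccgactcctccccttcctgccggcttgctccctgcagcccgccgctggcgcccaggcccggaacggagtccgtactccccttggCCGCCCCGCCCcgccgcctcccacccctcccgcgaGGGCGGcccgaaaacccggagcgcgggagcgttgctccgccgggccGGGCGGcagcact

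The upstream Prdm9 window held 2 matches to the STRA8-MEIOSIN motif, the binding motif described for the activators of the meiotic programme, 1 of them overlapping a GC box by some of its letters. Of all 32817 windows, 7.94% held at least 1 such match. The other 10 windows examined, which include none of Cxxc1, held no match to these letters. The window at the downstream Cdyl start had a GC content of 78.0%, above that of 98.1% of all windows, with 8 GC boxes, and a further window that overlaps it, not shown, had a GC content of 73.7% and 7 GC boxes, whereas the window at its upstream start had a GC content of 47.0% and no GC box. GC boxes were present in 35.6% of all windows. These are matches of letters only, and binding was not measured.

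Across the juvenile mice the levels in TPM ranked Ewsr1 first, with a mean of 384 TPM over the 28 mice, followed by Ehmt2 (201 TPM), Zcwpw1 (132 TPM), Hells (129 TPM), Cxxc1 (90.0 TPM), Cdyl (39.3 TPM) and Prdm9 (29.4 TPM). Ewsr1 exceeded Ehmt2, Ehmt2 exceeded Zcwpw1, and Cxxc1 exceeded Cdyl in 28 of 28 mice, and Hells exceeded Cxxc1 in 27. Zcwpw1 was above Hells in only 16 mice and Cdyl above Prdm9 in 21, so the order of these neighbours was not the same in all mice. These counts pool ages, and the order of the age means changed with age in both pairs. In the youngest mice the lowest Cdyl value, 52.2 TPM, lay above the highest Prdm9 value, 31.9 TPM. In the oldest mice Cdyl had the lower mean, 23.9 TPM against 26.5 TPM. Even Prdm9, the lowest, had a mean above that of 67.5% of the 20368 genes.

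**Figure D1:**
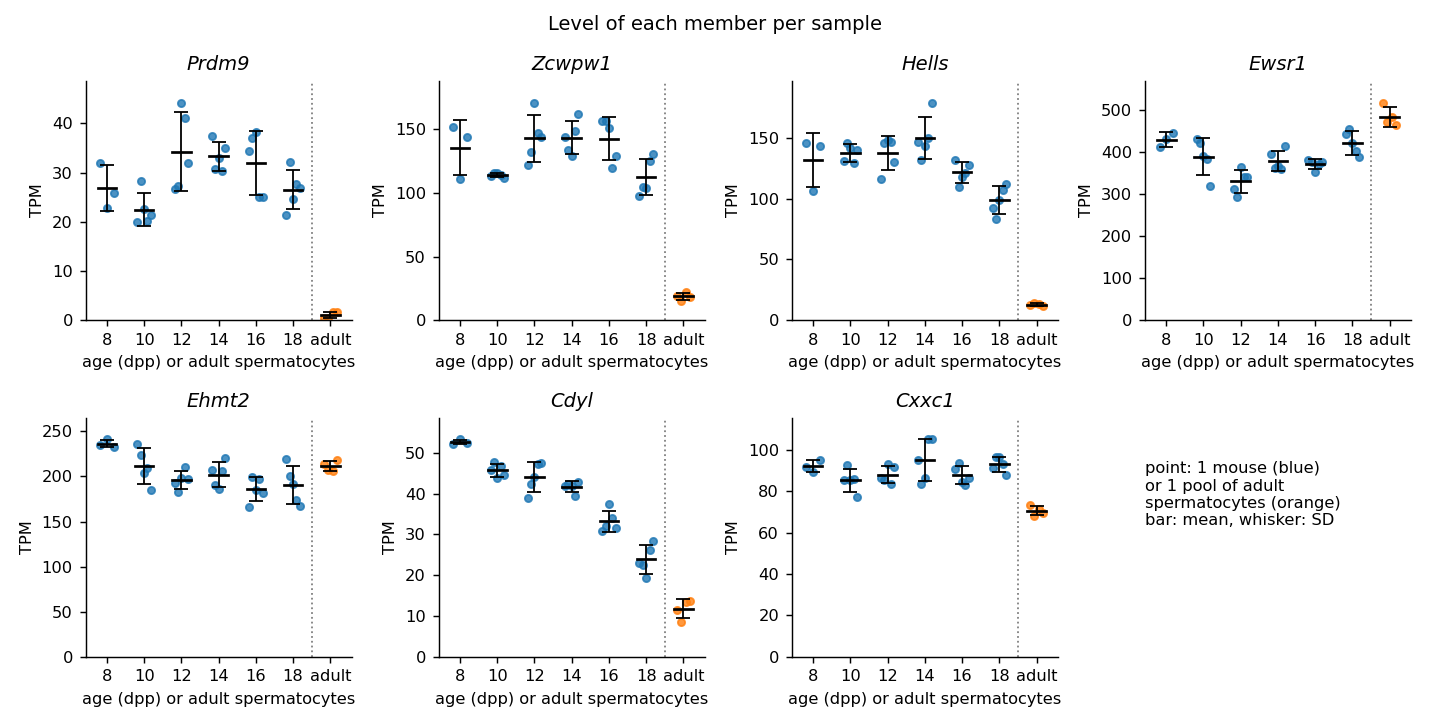
Level of each of the 7 genes in TPM (vertical axis, from 0) at each juvenile age and in the adult spermatocytes, pachytene and diplotene (horizontal axis). Points are 1 mouse or 1 adult pool, horizontal bars the mean and whiskers the SD. Cdyl fell from a mean of 52.7 TPM at 8 dpp to 23.9 TPM at 18 dpp, and the adult samples of Prdm9, between 0.49 and 1.62 TPM, lay below every juvenile mouse.

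The question put to the juvenile series was whether these levels differed among the 6 ages. With limma on log2(TPM + 1) and Benjamini-Hochberg adjustment over all genes, 6 of the 7 genes were called for a difference among ages, against 77.6% of all genes tested, a share near that of the members. Cdyl gave an adjusted p of 8.12e-12, Hells 3.96e-05, Ewsr1 0.000409, Zcwpw1 0.00206, Prdm9 0.0043 and Ehmt2 0.00454 in this limma F test, and Cxxc1 gave 0.16. The sizes were modest: the span from the lowest to the highest age mean of log2(TPM + 1) was 1.11 for Cdyl, between 0.35 and 0.60 for the other 5 called genes and 0.16 for Cxxc1, where the median gene spanned 0.79. Only 1.27% of genes had a smaller span than Cxxc1. Since the samples hold a mixture of cells, fewer cells of a type and less RNA per cell cannot be told apart in any of these values.

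Prdm9 was lowest at 10 dpp and highest at 12 dpp. At 8 dpp the mice had 31.9, 22.8 and 25.9 TPM, at 10 dpp 20.0, 28.2, 22.5, 20.2 and 21.3 TPM, and at 12 dpp 26.7, 27.3, 44.2, 41.1 and 31.9 TPM. At 14 dpp they had 37.5, 30.8, 33.0, 30.3 and 35.0 TPM, at 16 dpp 34.3, 37.0, 38.3, 25.1 and 25.0 TPM, and at 18 dpp 21.3, 32.1, 24.7, 27.6 and 26.8 TPM. The highest mouse at 10 dpp lay above the lowest 2 of the 12 dpp mice, and the 16 dpp mice split into 3 between 34.3 and 38.3 TPM and 2 at 25.1 and 25.0 TPM. The 10 dpp mice averaged 22.4 ± 3.37 TPM of Prdm9 and the 12 dpp mice 34.2 ± 8.00 TPM (SD, n = 5 each), a rise with a log2 fold change of 0.57 ± 0.143 (SE) with a limma adjusted p of 0.00483, when 12.0% of all genes were called higher. The rise was not called when only mice 1 to 3 of each age were used (limma adjusted p = 0.12).

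From 12 to 18 dpp Prdm9 fell by 0.34 on the log2 scale (SE 0.143), with a limma adjusted p of 0.0388, to 26.5 ± 3.95 TPM (SD, n = 5), while 39.1% of all genes were called lower. The median of all genes moved by -0.15 in the same comparison, so that relative to it the fall of Prdm9 was smaller. This call was lost when 12 dpp mouse 3 (limma adjusted p = 0.143) or mouse 4 (0.118) or 18 dpp mouse 1 (0.12) or mouse 3 (0.0743) was left out, and with median-of-ratios scaling, which gave -0.14 and a limma adjusted p of 0.374. It was also lost with no filter on low values (limma adjusted p = 0.0957), with mice 1 to 3 alone (0.172) and with these ages alone (0.0824). Between 8 and 18 dpp the change was -0.02 ± 0.165 (SE) and was not called (limma adjusted p = 0.936).

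Zcwpw1, the reader of PRDM9's marks, followed a similar course at a higher level. Its mice had 152, 111 and 144 TPM at 8 dpp, 113, 116, 116, 114 and 112 TPM at 10 dpp, and 122, 132, 171, 147 and 144 TPM at 12 dpp. At 14 dpp the values were 144, 134, 129, 149 and 162 TPM, at 16 dpp 157, 157, 151, 120 and 129 TPM, and at 18 dpp 98.0, 105, 104, 125 and 131 TPM. Every 12 dpp mouse lay above every 10 dpp mouse, where the 5 values lay between 112 and 116 TPM. The rise from 10 to 12 dpp was 0.31 ± 0.0976 (SE) on the log2 scale with a limma adjusted p of 0.0213, and it was not called without 12 dpp mouse 3 (limma adjusted p = 0.0798). Nor was it called with no filter on low values (limma adjusted p = 0.0633) or with mice 1 to 3 alone (0.0968).

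Between 12 and 18 dpp Zcwpw1 fell by 0.34 on the log2 scale (SE 0.0976, limma adjusted p = 0.00306), and the 2 ages overlapped. The step from 16 to 18 dpp, again -0.34, carried a limma adjusted p of 0.00474, while 30.6% of all genes were called lower between these ages. Both calls were lost with median-of-ratios scaling, with limma adjusted p-values of 0.128 and 0.0788. Against 8 dpp the 18 dpp mice were lower by a log2 fold change of -0.26 ± 0.113 (SE) with a limma adjusted p of 0.0424, while 36.3% of all genes were called lower. Leaving out any 1 of 5 mice removed this call (8 dpp mice 1 and 3 and 18 dpp mice 1, 2 and 3, limma adjusted p between 0.0806 and 0.246), and median-of-ratios scaling gave -0.09 with a limma adjusted p of 0.428. The call was also lost with no filter on low values (limma adjusted p = 0.0919), with these ages alone (0.121) and without the variance trend (0.0559). The ratio of Zcwpw1 to Prdm9 had medians between 4.36 and 5.24 at the 6 juvenile ages.

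Hells, the remodeller, held its level until 14 dpp and was lower afterwards. It was at 146, 106 and 143 TPM at 8 dpp, 131, 146, 142, 129 and 140 TPM at 10 dpp, 116, 146, 148, 147 and 130 TPM at 12 dpp, and 147, 132, 143, 150 and 179 TPM at 14 dpp. The values were 132, 110, 118, 121 and 128 TPM at 16 dpp and 92.6, 83.3, 99.2, 107 and 112 TPM at 18 dpp. All 18 dpp mice lay below all 12 dpp mice. Hells fell by 0.29 on the log2 scale from 14 to 16 dpp (SE 0.0927, limma adjusted p = 0.0214) and by 0.30 from 16 to 18 dpp (SE 0.0927, limma adjusted p = 0.00744). The first step was not called without 14 dpp mouse 7 (limma adjusted p = 0.081) or 16 dpp mouse 2 (0.0609), and the second was not called with median-of-ratios scaling (0.175). The first was also lost with no filter on low values (limma adjusted p = 0.0644) and with mice 1 to 3 alone (0.198). From 14 to 16 dpp, 11.3% of all genes were called lower. Over the whole span from 8 to 18 dpp the log2 fold change was -0.40 ± 0.107 (SE) with a limma adjusted p of 0.0017.

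Ewsr1, which encodes the FET-family partner of PRDM9, took another course, with its low at 12 dpp. The mice had 412, 432 and 447 TPM at 8 dpp, 432, 421, 390, 384 and 319 TPM at 10 dpp, and 313, 294, 366, 341 and 340 TPM at 12 dpp. At 14 dpp they had 395, 362, 368, 361 and 415 TPM, at 16 dpp 381, 377, 352, 371 and 376 TPM, and at 18 dpp 443, 456, 422, 402 and 388 TPM. Each 18 dpp mouse was above each 12 dpp and each 16 dpp mouse. Ewsr1 fell by 0.23 from 10 to 12 dpp on the log2 scale (SE 0.0682, limma adjusted p = 0.0155), when 9.39% of all genes were called lower. It then rose by a log2 fold change of 0.35 ± 0.0682 (SE) from 12 to 18 dpp, with a limma adjusted p of 5.42e-05, as 28.6% of all genes were called higher. The fall was not called without 10 dpp mouse 1 or 2 or 12 dpp mouse 2 (limma adjusted p between 0.0518 and 0.0597). It was also lost when 10 and 12 dpp were fitted alone (limma adjusted p = 0.0887).

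The last step of Ewsr1, from 16 to 18 dpp, was 0.18 ± 0.0682 (SE) on the log2 scale with a limma adjusted p of 0.0265, beside 23.4% of all genes called higher. It was not called with quantile normalization (limma adjusted p = 0.19), with no filter on low values (0.0616) or without 16 dpp mouse 3, 18 dpp mouse 1 or 18 dpp mouse 2 (between 0.0649 and 0.0799).

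Ehmt2, the lysine 9 methyltransferase, was highest in the youngest mice. It stood at 235, 241 and 233 TPM at 8 dpp, 236, 224, 204, 209 and 185 TPM at 10 dpp, and 193, 183, 198, 210 and 197 TPM at 12 dpp. Later values were 207, 191, 186, 206 and 220 TPM at 14 dpp, 166, 199, 185, 197 and 182 TPM at 16 dpp, and 219, 200, 192, 174 and 167 TPM at 18 dpp. The 12, 14, 16 and 18 dpp mice were all below the 8 dpp mice, and every other pair of ages overlapped. Between 8 and 18 dpp Ehmt2 fell by 0.32 on the log2 scale (SE 0.0809, limma adjusted p = 0.00111), and the call was lost with median-of-ratios scaling (limma adjusted p = 0.176). The same scaling called Ehmt2 higher at 18 than at 16 dpp, by a log2 fold change of 0.20 (limma adjusted p = 0.0397), a step not called in TPM.

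Cdyl, the chromodomain gene, showed the steepest course of the 7. Its mice had 52.2, 53.3 and 52.5 TPM at 8 dpp, 45.9, 47.8, 43.8, 46.7 and 44.7 TPM at 10 dpp, and 38.9, 42.5, 44.1, 47.3 and 47.6 TPM at 12 dpp. They had 41.8, 42.3, 41.9, 39.4 and 42.9 TPM at 14 dpp, 30.9, 32.0, 37.4, 34.0 and 31.7 TPM at 16 dpp, and 23.1, 22.4, 19.4, 26.1 and 28.5 TPM at 18 dpp. The 8 and 10 dpp mice, the 14 and 16 dpp mice and the 16 and 18 dpp mice did not overlap. Cdyl fell by 0.32 on the log2 scale from 14 to 16 dpp (SE 0.0745, limma adjusted p = 0.00224) and by 0.47 from 16 to 18 dpp (SE 0.0745, limma adjusted p = 1.44e-05). From 8 to 18 dpp the log2 fold change was -1.12 ± 0.086 (SE), with a limma adjusted p of 8.57e-12, and it was called under every scaling, filter and left-out mouse that was tried.

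Markers of Sertoli cells, the somatic cells that surround germ cells in the tubule, had a lower summed level at 18 dpp than at any earlier age. All 8 listed Sertoli markers were above 1 TPM at every age, and their summed level was between 7221 and 8110 TPM at 8 dpp, between 5436 and 7420 TPM at 16 dpp and between 3595 and 4693 TPM at 18 dpp. Most of this sum was Clu, whose mean went from 5377 TPM in the youngest mice to 2899 TPM in the oldest. The markers differed in course, since Amh went from a mean of 358 to 59.4 TPM between 8 and 18 dpp, Amhr2 from 481 to 456 TPM and Rhox5 from 36.6 to 68.4 TPM. The summed level of the 5 markers of peritubular cells lay between 1051 and 1160 TPM at 8 dpp and between 524 and 1034 TPM at 18 dpp, and that of the 6 Leydig cell markers between 175 and 198 TPM and between 169 and 472 TPM. The summed level of the 6 spermatocyte markers was between 449 and 655 TPM at 8 dpp and between 3760 and 5138 TPM at 18 dpp, with Ldhc going from a mean of 2.07 to 2396 TPM and Syce2 from 117 to 112 TPM. The 6 spermatogonial markers also differed in course between 8 and 18 dpp. Zbtb16 went from a mean of 22.7 to 9.04 TPM, Gfra1 from 12.0 to 4.50 TPM and Kit from 49.2 to 27.0 TPM. Nanos3 went from 5.80 to 3.67 TPM and Sohlh1 from 81.9 to 32.0 TPM, whereas Dmrtb1 went from 54.9 to 420 TPM. The part of these differences in the falls of Cdyl, Hells, Ehmt2 and Zcwpw1 was not tested.

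Cxxc1, which encodes the CpG-binding subunit and lies at chr18:74216124-74221496 on the plus strand, ranged between 77.0 and 105 TPM over all 28 mice. It was at 91.6, 89.3 and 95.3 TPM at 8 dpp and at 91.1, 96.6, 96.3, 93.1 and 87.9 TPM at 18 dpp, values that overlap. Its lowest age mean was 85.2 ± 5.54 TPM at 10 dpp and its highest 95.0 ± 10.0 TPM at 14 dpp (SD, n = 5 each). No comparison between ages was called in TPM with all mice, and the change from 8 to 18 dpp was 0.01 ± 0.0698 (SE) on the log2 scale (limma adjusted p = 0.868). With median-of-ratios scaling, however, Cxxc1 was called for a difference among ages and was higher at 18 dpp than at 8, 12 and 16 dpp, with limma adjusted p-values of 0.0263, 0.000418 and 0.00194. The difference among ages was also called without 14 dpp mouse 2 (limma adjusted p = 0.0484).

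Several of these calls depended on the scaling, and the 2 other scalings shifted the median gene in opposite directions from its TPM value in the comparisons with 18 dpp. The median gene moved by -0.094 from 8 to 18 dpp, by -0.148 from 12 to 18 dpp and by -0.113 from 16 to 18 dpp on the log2(TPM + 1) scale. After median-of-ratios scaling it moved by 0.049, 0.016 and 0.026, and after quantile normalization by -0.264, -0.304 and -0.166. Of all genes called from 12 to 18 dpp, 42.2% were higher in TPM, 55.3% after median-of-ratios scaling and 33.6% after quantile normalization. From 16 to 18 dpp the shares were 43.4%, 63.0% and 37.8%.

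No member was called between 8 and 10 dpp or between 12 and 14 dpp by limma. At an unadjusted p under 0.05 there were 2 in the first comparison, Cdyl and Zcwpw1, and 1 in the second, Ewsr1. Few genes of any kind were called there, 1.20% from 8 to 10 dpp and 0.172% from 12 to 14 dpp.

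**Figure D2:**
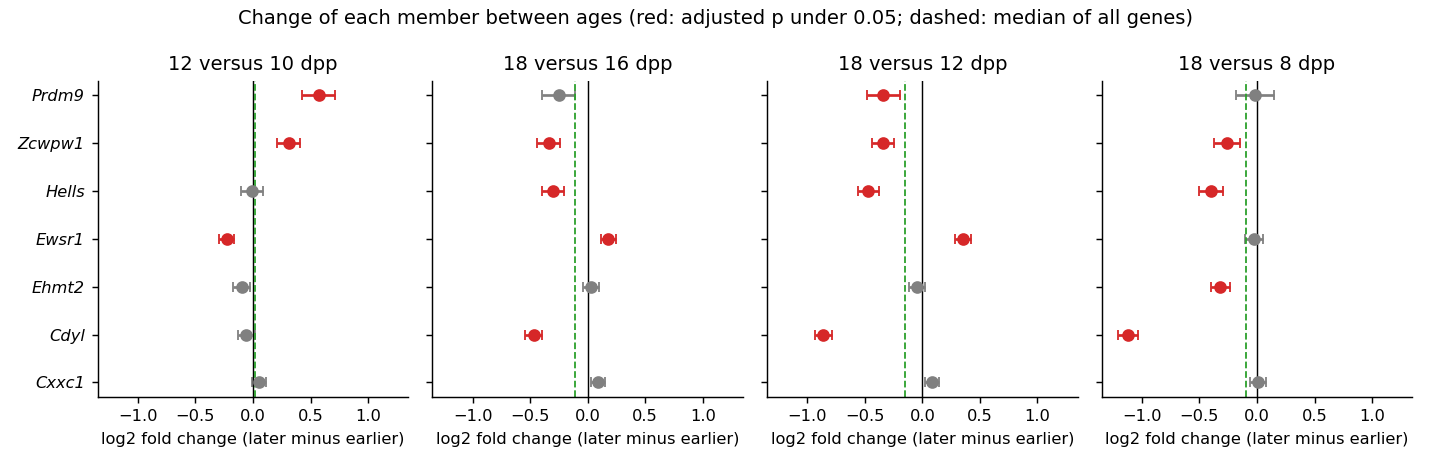
Log2 fold change of each gene on the log2(TPM + 1) scale (horizontal axis, later minus earlier age), with its SE, in 4 comparisons of ages. Red points passed an adjusted p of 0.05 in limma, and the dashed line is the median of all genes. From 10 to 12 dpp Prdm9 (0.57) and Zcwpw1 (0.31) were higher and Ewsr1 (-0.23) lower, and from 8 to 18 dpp Cdyl lay farthest from 0 at -1.12.

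In the adult spermatocytes the 7 genes parted. Prdm9 was at 0.52, 0.49, 1.56 and 1.62 TPM in the 4 pools, a mean of 1.05 ± 0.627 TPM (SD, n = 4) and 3.95% of the 18 dpp mean. All 4 values lay below the lowest juvenile mouse, at 20.0 TPM. Zcwpw1 was at 19.2, 15.1, 22.2 and 18.1 TPM, or 16.6% of its 18 dpp mean, and Hells was at 12.4, 13.9, 13.3 and 11.7 TPM, or 13.0%. For these 3 genes the adult level was clear of every juvenile mouse.

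Cdyl stood at 11.4, 8.56, 13.4 and 13.8 TPM in the adult pools, 49.3% of the 18 dpp mean and below every juvenile mouse. Cxxc1 stood at 73.3, 67.9, 71.5 and 69.7 TPM, 75.9% of the 18 dpp mean and also below every juvenile mouse. Ewsr1, by contrast, reached 518, 472, 485 and 464 TPM, above every juvenile mouse, and Ehmt2 had 214, 207, 206 and 218 TPM, within the juvenile range. The adult minus 18 dpp difference in log2(TPM + 1) was -3.75 for Prdm9, -2.85 for Hells, -2.53 for Zcwpw1, -0.96 for Cdyl, -0.39 for Cxxc1, 0.15 for Ehmt2 and 0.20 for Ewsr1, where the median gene was at -0.68. Only 2.44% of genes had a lower difference than Prdm9. The ratio of Zcwpw1 to Prdm9 was between 11.2 and 36.9 in the adult pools, but with Prdm9 near 1 TPM its value is imprecise.

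The label of the adult samples was checked against markers. The 6 spermatocyte markers summed to between 8031 and 8477 TPM, led by Ldhc at a mean of 6852 TPM. Spermatid markers, between 0 and 8.61 TPM in the 18 dpp mice, summed to between 936 and 1260 TPM in the adult pools. The 8 Sertoli markers summed to between 346 and 505 TPM and the 6 Leydig cell markers to between 206 and 270 TPM, led by Insl3 at a mean of 176 TPM. The summed levels of peritubular, macrophage and endothelial markers were at or below 10.7 TPM. Of the 6 spermatogonial markers, Dmrtb1 was at a mean of 1427 TPM in the adult cells and the other 5 were at or below 1.61 TPM, so that the summed level of that list follows Dmrtb1. What these other cells contribute to the adult values of the 7 genes was not tested.

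The transcript table was used to ask whether the members changed the transcript they make. Of their transcripts, 32 had a mean of at least 1 TPM, and 31 could be tested as a percentage of the summed level of their gene, with the 8 mice of 8 and 10 dpp against the 10 mice of 16 and 18 dpp. Cxxc1 had the 1 transcript, Cxxc1-201. None of the 31 was called by limma at an adjusted p under 0.05 with a change of at least 20 percentage points, where 2.38% of all 23830 transcripts tested were called. At an unadjusted p under 0.05 there were 9, and 3 had an adjusted p under 0.05 with a change too small for the call. Changes among the 31 ran from -6.74 to 6.74 points.

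Prdm9 was carried mainly by Prdm9-206, a protein-coding transcript with a coding length of 2529 bases, which begins within the downstream window. It made up 59.3 ± 4.43% of the gene's TPM in the early mice (SD, n = 8) and 58.1 ± 7.80% in the late mice (SD, n = 10). Prdm9-204, a retained-intron transcript that begins at the upstream start, made up 26.6 ± 6.00% and 27.4 ± 6.87%. A further retained-intron transcript, Prdm9-201, was at 7.15 ± 5.13% and 12.3 ± 4.04% (limma adjusted p = 0.115). Between 10 and 12 dpp the mean of Prdm9-206 went from 13.4 to 19.0 TPM and that of Prdm9-204 from 5.37 to 10.2 TPM, so both had a higher mean at 12 dpp.

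Cdyl came from 2 transcripts with separate starts. Cdyl-202, from the GC-rich downstream start, gave 81.9 ± 8.49% of the gene's TPM in the early mice (SD, n = 8) and 88.7 ± 7.72% in the late mice (SD, n = 10). Cdyl-201, from the upstream start, gave the remaining 18.1 ± 8.49% and 11.3 ± 7.72%, a change of -6.74 ± 3.71 points (SE) with a limma adjusted p of 0.257. It was at 15.5, 16.2 and 8.87 TPM at 8 dpp and at 5.72, 0, 1.49, 2.39 and 4.24 TPM at 18 dpp. RSEM, which estimates each transcript's share of reads that fit several, listed it at 0 in at least 1 mouse of each age from 12 dpp on. The mean of Cdyl-202 went from 39.1 TPM at 8 dpp to 21.2 TPM at 18 dpp.

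The 3 transcripts with an adjusted p under 0.05 moved little. Zcwpw1-201, the main coding transcript of Zcwpw1, went from 81.8 ± 2.81% to 86.2 ± 1.87% (limma adjusted p = 0.0181). The retained-intron transcript Ehmt2-205 went from 8.82 ± 1.83% to 5.50 ± 1.79% (limma adjusted p = 0.0167). Ewsr1-210, a processed transcript, went from 6.06 ± 0.994% to 4.12 ± 1.45% (limma adjusted p = 0.0468). Among the other coding transcripts, Hells-201 held 45.8 ± 4.43% and 47.6 ± 3.70% of Hells. In the early mice Ehmt2 was divided among Ehmt2-204, Ehmt2-202 and Ehmt2-201 at 22.0%, 23.3% and 23.7%. Ewsr1 came mainly from Ewsr1-202 and Ewsr1-203, at 29.6% and 24.7% in these mice. The test pooled 16 and 18 dpp, where the shares of Ehmt2-204 were unlike. They were 40.3, 28.8, 29.3, 36.9 and 21.1% at 16 dpp and 7.51, 6.30, 17.1, 8.95 and 32.1% at 18 dpp. Its mean went from 57.9 to 26.2 TPM, while that of Ehmt2-202 went from 38.0 to 58.7 TPM. This step was not tested.

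**Figure D3:**
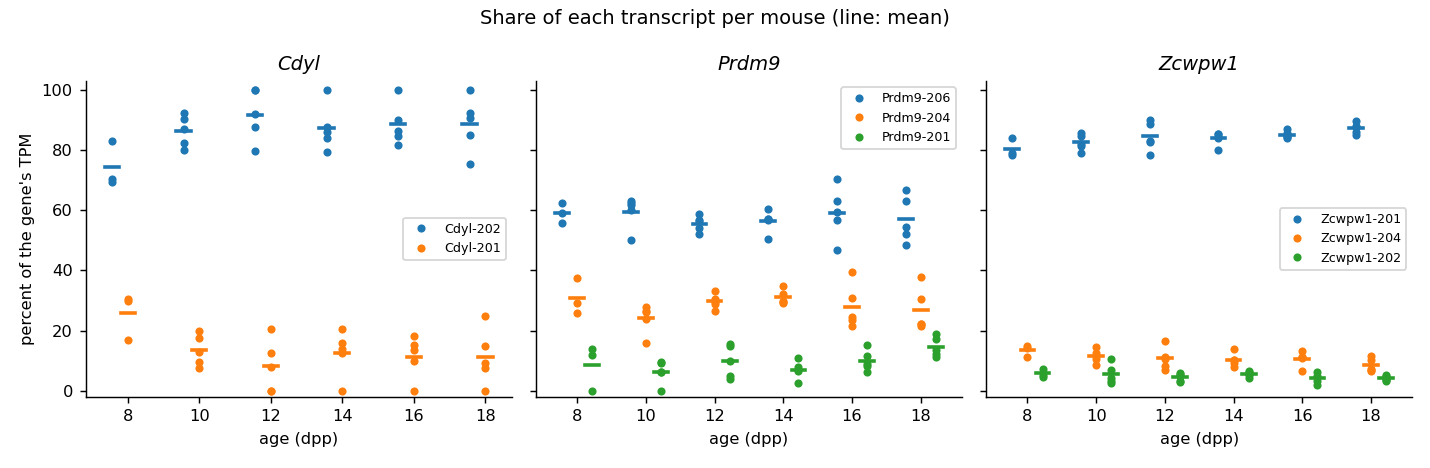
Percentage of the gene's TPM held by each transcript (vertical axis) in every mouse at the 6 juvenile ages (horizontal axis), for Cdyl, Prdm9 and Zcwpw1. Points are mice and lines are means. Prdm9-206 stayed the most abundant Prdm9 transcript in each mouse shown, and Cdyl-201 was highest at 8 dpp.

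To see which other genes had courses like those of the members, log2(TPM + 1) was correlated over the 28 mice with each of 14896 Ensembl genes that have a symbol. The genes most like Prdm9 were Zcwpw1 (Pearson r = 0.792), Fbxl15 (0.791), Pilra (0.779), Prss50 (0.772) and Sgsm3 (0.771). Of these, Pilra overlaps Zcwpw1. Prss50, a testis protease gene, had means of 107, 167 and 142 TPM at 8, 12 and 18 dpp and 0.973 TPM in the adult pools. For Zcwpw1 the 3 most alike genes were Pak1 (0.902), Taf4b (0.891) and BC055324 (0.877), and for Hells they were Picalm (0.876), Ireb2 (0.876) and Capn7 (0.873). Taf4b, a germ cell transcription factor subunit, had 2.10 TPM in the adult pools against 30.3 TPM at 18 dpp. These correlations are descriptions over mice that share ages.

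Cdyl was most like Jak1 (r = 0.980), Axl (0.979) and Stk24 (0.979). Axl, a receptor kinase gene of Sertoli cells among others, went from 264 TPM at 8 dpp to 116 TPM at 18 dpp and 8.30 TPM in the adult pools. Ewsr1 was most like Acin1 (0.879), Yod1 (0.825) and Tuft1 (0.818), Ehmt2 like Asxl1 (0.876), Scrib (0.868) and Mdn1 (0.850), and Cxxc1 like Elac2 (0.836), Ncapd2 (0.753) and Arrdc2 (0.732).

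Genes that work beside the members were described in 6 lists. The machinery that makes and repairs double-strand breaks had the most called genes of the 6 lists from 10 to 12 dpp. By limma 9 of the 15 tested genes rose and 0 fell, where 12.0% of all genes were called higher and 9.39% lower. The list median was 0.50 beside 0.01 for all genes. Meiob, a single-strand DNA binding protein gene, rose by 2.32 (limma adjusted p = 2.53e-12) and Spo11, which makes the breaks, by 1.44 (1.1e-07) on the log2 scale. From 8 to 18 dpp 8 rose and 3 fell, with a median of 0.36 beside -0.09 for all genes. Of all genes, 31.8% were called higher and 36.3% lower between these ages, 68.2% in all, so that 11 of 15 called is a share near the background. Spo11 went from 4.65 to 51.5 TPM (limma adjusted p = 1.17e-14), and Meiob from 4.64 to 37.9 TPM (9.72e-15). The adult mean of Spo11 was 139 TPM, whereas that of Prdm9 was 1.05 TPM.

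The list of 14 subunits of H3K4 methyltransferase complexes covers more than the SETD1 complexes, to which CXXC1 belongs. Of the 14, 10 fell and 1 rose from 8 to 18 dpp, beside 36.3% of all genes called lower and 31.8% higher. The list median was -0.30 beside -0.09 for all genes. Kmt2c changed by -0.98 (limma adjusted p = 1.59e-08) and Kmt2a by -0.96 (1.51e-07). In the step from 10 to 12 dpp 3 fell and 0 rose, a share near the 21.4% of all genes called. Of these, Kmt2d was at -0.48 (limma adjusted p = 0.0142) and Setd1b at -0.47 (0.00901). Of the 14 genes of H3K9 methylation, relatives and partners of EHMT2 and CDYL, 7 fell and 2 rose from 8 to 18 dpp, with a median of -0.18. The 9 called of 14 are a share near the 68.2% of all genes called. Those with the largest change were the demethylase genes Kdm4d, which rose by 4.54 (limma adjusted p = 4.1e-13), and Kdm3a, which rose by 1.23 (5.81e-10). These erase the mark that the list's methyltransferases write. Between 10 and 12 dpp 1 rose and 3 fell, beside 12.0% of all genes called higher and 9.39% lower. Kdm4d was at 0.99 (limma adjusted p = 0.00642) and Zfp644 at -0.33 (0.0041).

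Among the 8 relatives and partners of HELLS and EWSR1, 5 fell and 1 rose from 8 to 18 dpp, beside 36.3% of all genes called lower and 31.8% higher, with a median of -0.40 beside -0.09 for all genes. Cdca7, which encodes the zinc finger partner of HELLS, fell by 1.08 (limma adjusted p = 3.25e-10) and was at 1.16 TPM in the adult pools. A single gene fell from 10 to 12 dpp, Cdca7l at -0.35 (limma adjusted p = 0.00399), beside 9.39% of all genes called lower. Of the 10 tested readers and writers of H3K4me3 and H3K36me3, 4 rose and 5 fell from 8 to 18 dpp, where 68.2% of all genes were called, with a median of -0.15. Morc2b, listed at 0 in the 8 dpp mice, had a mean of 103 TPM at 18 dpp and a fitted log2 fold change of 6.60 (limma adjusted p = 1.19e-16), and Phf8 changed by -0.72 (1.8e-07). Between 10 and 12 dpp 1 rose, Morc2b at 1.94 (limma adjusted p = 1.21e-06), and 1 fell, Nsd1 at -0.24 (0.0229). In this step 12.0% of all genes were called higher and 9.39% lower.

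The last list held the other genes of the PRDM family. Of the 14 listed 9 were tested, and of these 4 rose and 0 fell from 8 to 18 dpp, beside 68.2% of all genes called, with a median of 0.18 beside -0.09 for all genes. Prdm8 rose by 1.72 (limma adjusted p = 6.7e-06), to 3.49 TPM at 18 dpp and 17.0 TPM in the adult pools, and Mecom by 0.52 (0.0195). From 10 to 12 dpp, the step at which Prdm9 rose, limma called 0 of the 9, beside 21.4% of all genes, and 1 had an unadjusted p under 0.05.

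**Figure D4:**
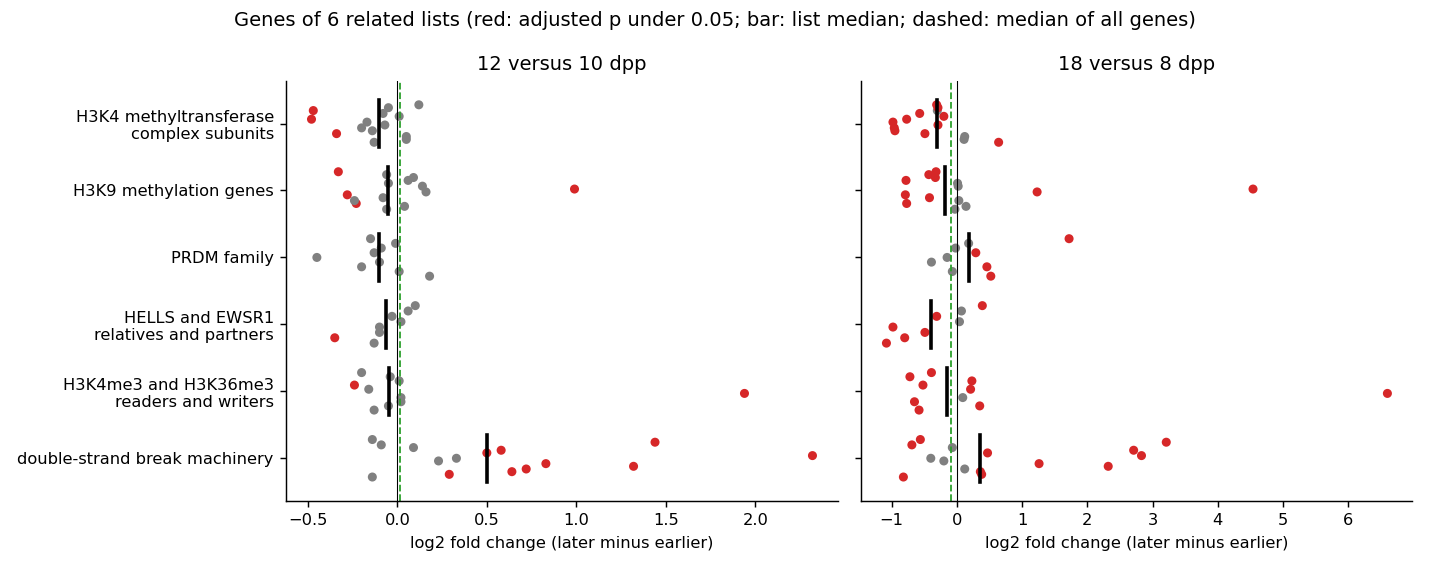
Log2 fold change on the log2(TPM + 1) scale (horizontal axis, later minus earlier age) of the tested genes of 6 lists from 10 to 12 dpp and from 8 to 18 dpp. Points are genes, red where limma's adjusted p was under 0.05, black bars are list medians and the dashed line is the median of all genes. The double-strand break machinery had a median of 0.50 from 10 to 12 dpp, and Morc2b lay farthest to the right from 8 to 18 dpp at 6.60.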

How the data were processed

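Germ cells of 28 juvenile mice, each 1 sample, and 4 adult pools were analysed, grouped by their labels. The authors made poly-A libraries, read 100 bp pairs, aligned them with Bowtie 1.0.0 to mm10 transcripts and estimated TPM with RSEM 1.2.8. The deposited transcript and adult tables hold TPM. The deposited juvenile gene table, planned for as TPM, holds a score, exp(log2(TPM + 1)) - 1, which was converted back; 20288 of 20368 genes then lay within 0.2 TPM of their summed transcripts. The authors' column of meiotic substages, a result of their covariance analysis, was not used. TPM keeps no read counts, so depth is unknown and the error is the spread between mice.

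Genes of at least 3 TPM in at least 1 mouse were fitted on log2(TPM + 1), which understates changes of low genes, with limma 3.58.1 (R 4.3.3), the 6 ages in 1 model, a variance trend and Benjamini-Hochberg adjustment over all 20368 genes (threshold 0.05). Transcript percentages were fitted likewise, for genes averaging at least 3 TPM early and late with 2 or more transcripts of at least 1 TPM. Both fits were tested on simulated data. Gene models came from GENCODE M21 and promoters from RefSeq.

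The members, lists and markers were chosen with earlier results of these data known. All members are named, of each list at most the 2 called genes with the largest change from 8 to 18 and from 10 to 12 dpp, and the 5 (Prdm9) or 3 genes of highest Pearson's r. Alternatives were another pseudocount, filter, scaling, source table or prior variance, a replicate block, fewer mice or ages, and each sample left out.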

Additional observations from a re-analysis of the deposited data

How the results depend on the processing

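The counts of members called kept within 1.5 times their value except in 2 comparisons, but a like count did not always hold the same members. For 18 versus 16 dpp median-of-ratios scaling lost Zcwpw1 and Hells, both lower in TPM. It gained Ehmt2 and Cxxc1, both higher. The same scaling lost Zcwpw1 and Ehmt2 and gained Cxxc1 for 18 versus 8 dpp, and lost Prdm9 and Zcwpw1 and gained Cxxc1 for 18 versus 12 dpp. From 10 to 12 dpp mice 1 to 3 alone gave 1 in place of 3, and from 14 to 16 dpp 1 in place of 2 was called with no filter on low values, with mice 1 to 3 alone and in the fit with a replicate block. Leaving out 1 mouse gave 6 to 7 members for any difference among ages, 0 for 10 versus 8 and 14 versus 12 dpp, 2 to 3 for 12 versus 10 dpp, 1 to 2 for 16 versus 14 dpp, 3 to 4 for 18 versus 16 and 18 versus 8 dpp and 4 to 5 for 18 versus 12 dpp. With all mice, 77.6% of all genes were called for any difference among ages. The shares were 21.4% for 12 versus 10 dpp and 68.2% for 18 versus 8 dpp. Of 20368 genes, 4890 were called for 16 versus 14 dpp, 11002 for 18 versus 16 dpp and 13796 for 18 versus 12 dpp. The usage count was 0 under every alternative, and adult means moved by less than 1 SD.

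Mouse numbers were shared across ages. Of 57 pairs of mice with the same number, 3 had deviations that correlated above 0.1, and the correlations ran from -0.248 to 0.253. Their median was 0.0147, beside 5.88e-04 for mice with other numbers. Of 26 mice compared, 8 correlated best with a mouse of their own number. Whether the numbers pair the mice was not tested, and the main fit held no block. With the replicate block, the calls of Prdm9 from 12 to 18 dpp (limma adjusted p = 0.0581), Zcwpw1 from 8 to 18 dpp (0.062) and Hells from 14 to 16 dpp (0.114) were lost.

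Of the changes of single members, 54 values changed sign, none of them called before or after, and the cause was not tested. Under median-of-ratios scaling these were Zcwpw1 at -0.02 (14 versus 12 dpp) and 0.05 (16 versus 14 dpp), Ewsr1 at 0.03 (16 versus 14 dpp) and 0.15 (18 versus 8 dpp), Prdm9 at 0.15 (18 versus 8 dpp) and Ehmt2 at 0.15 (18 versus 12 dpp). Under the replicate block they were Zcwpw1 at -0.07 (14 versus 12 dpp) and 0.06 (16 versus 14 dpp), Ehmt2 at -0.04 (14 versus 12 dpp), Cxxc1 at -0.02 (14 versus 12 dpp) and 0.02 (16 versus 14 dpp), Ewsr1 at 0.02 (16 versus 14 dpp) and 0.00 (18 versus 8 dpp), and Prdm9 at 0.03 (18 versus 8 dpp). With mice 1 to 3 they were Prdm9 at 0.08 and 0.11, Zcwpw1 at -0.05 and 0.19 and Cxxc1 at -0.00 and 0.02 (each for 14 versus 12 and 16 versus 14 dpp), Cdyl at 0.01 (14 versus 12 dpp), Ewsr1 at 0.03 (18 versus 8 dpp) and Ehmt2 at 0.09 (18 versus 12 dpp). Quantile normalization gave Ehmt2 -0.07 (18 versus 16 dpp), Ewsr1 0.01 (18 versus 8 dpp) and Cxxc1 -0.00, -0.09 and -0.03 (18 versus 16, 8 and 12 dpp). With 1 mouse left out, Hells ran from -0.07 to 0.16 (10 versus 8 dpp) and from -0.04 to 0.05 (12 versus 10 dpp), Prdm9 from -0.09 to 0.08 (14 versus 12 dpp), from -0.15 to 0.00 (16 versus 14 dpp) and from -0.12 to 0.11 (18 versus 8 dpp), Zcwpw1 from -0.05 to 0.07 (14 versus 12 dpp) and from -0.05 to 0.05 (16 versus 14 dpp), Ehmt2 from -0.02 to 0.08 (18 versus 16 dpp), Ewsr1 from -0.06 to 0.00 and Cxxc1 from -0.01 to 0.04 (both 18 versus 8 dpp).

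Over all genes, the 245 calls from 8 to 10 dpp became 129 with these ages alone and 131 with the block, and the 35 calls from 12 to 14 dpp ranged from 0 (block) to 46 (pseudocount 0.1). From 14 to 16 dpp 53.0% of the called genes were higher in TPM, 66.3% after median-of-ratios scaling and 41.6% after quantile normalization.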
